A study of Mus musculus with 76 samples.

Results

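Levels, spread and promoter marks are given here for 9 genes that mark the choroid plexus or the leptomeninges, out of 56923 genes in the count files. They are known marker genes: Ttr, Folr1, Kl, Clic6, Aqp1, Prlr, Igfbp2, Ptgds and Slc6a13. The samples came from the diencephalon of mouse embryos at the embryonic stages E11.5 and E17.5 (days after conception), from a wild type line and from the hs754-humanized line. In the hs754-humanized line a mouse enhancer region on chromosome 13 is replaced in both alleles by the orthologous human sequence. That line was made by CRISPR editing in C57BL/6J mice, and embryos of each genotype came from crosses within their own homozygous line. RNA-seq was done on 4 pools per genotype and stage, each made from 1 litter (6 embryos for the earlier stage, 3 for the later), 16 RNA samples in all. ChIP-seq peak lists for H3K4me3, H3K27ac and H3K27me3 covered 2 samples of each genotype at the earlier stage and 3 at the later one, and those for CTCF 3 of each genotype at E17.5. None of the 9 genes lies on chromosome 13.

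The choroid plexus is a folded epithelium in the brain ventricles that makes the cerebrospinal fluid. It arises from the dorsal midline, where the roof plate secretes Wnt and Bmp signals, and one of its parts forms in the roof of the diencephalon. Its epithelial cells secrete transthyretin in very large amounts, carry folate, hormones and ions between blood and fluid, and bear motile cilia. The leptomeninges (arachnoid and pia) wrap the brain and send fibroblasts into the core of the choroid plexus. They express solute carriers and prostaglandin D synthase.

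In the mouse genome (GRCm39, the build of the deposited files), Ttr spans 20797253 to 20807467 on chromosome 18 (plus strand). Folr1 lies on chromosome 7 from 101507537 to 101520014 (minus strand), Kl on chromosome 5 from 150876072 to 150917284 (plus), and Clic6 on chromosome 16 from 92282624 to 92338739 (plus). Aqp1 is on chromosome 6 from 55313068 to 55325540 (plus), where Slc6a13 also lies, from 121277186 to 121316121 (plus). Prlr spans 10177258 to 10349959 on chromosome 15 (plus), Igfbp2 72863606 to 72891634 on chromosome 1 (plus) and Ptgds 25352795 to 25362601 on chromosome 2 (minus). The outermost annotated start and the start of the Ensembl canonical transcript coincide for 5 genes. They are 43 bp apart for Igfbp2, 1043 bp for Ttr, 1787 bp for Ptgds and 12378 bp for Clic6.

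The genes fall into groups by role. Ttr encodes transthyretin, which carries thyroid hormone and, with retinol binding protein, vitamin A. Aqp1 (a water channel), Clic6 (of the chloride intracellular channel family) and Folr1 (the folate receptor alpha) belong to fluid, ion and vitamin handling. Kl encodes Klotho, a co-receptor for FGF23 that is also shed, and Prlr the prolactin receptor. Ptgds makes prostaglandin D2 and also acts as a lipocalin carrier, Slc6a13 is a GABA and taurine carrier of the leptomeninges and of other barrier cells, and Igfbp2 binds insulin-like growth factors in the fluid. In the diencephalon Igfbp2 is also known from neuroepithelium and glia, so it is the least specific of the 9.

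The promoters differed in CpG content, which is shown for 4 of them because the marks described further on differ between these same promoters. Each is the 250 bases before the canonical start, 5′ to 3′ on the gene's own strand, with every CpG in capitals and no annotated exon inside. Kl (chr5:150875822-150876071) is rich in CpG and carried H3K4me3. Prlr (chr15:10177008-10177257) carried H3K4me3 with few CpGs. Folr1 (chr7:101520015-101520264) and Aqp1 (chr6:55312818-55313067) had no H3K4me3 peak in any list.
Kl: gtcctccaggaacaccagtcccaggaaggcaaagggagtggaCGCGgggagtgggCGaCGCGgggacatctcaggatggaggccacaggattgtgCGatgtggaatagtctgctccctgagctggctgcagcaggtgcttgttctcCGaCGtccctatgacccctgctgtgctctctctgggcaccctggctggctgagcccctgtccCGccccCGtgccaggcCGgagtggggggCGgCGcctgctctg
Prlr: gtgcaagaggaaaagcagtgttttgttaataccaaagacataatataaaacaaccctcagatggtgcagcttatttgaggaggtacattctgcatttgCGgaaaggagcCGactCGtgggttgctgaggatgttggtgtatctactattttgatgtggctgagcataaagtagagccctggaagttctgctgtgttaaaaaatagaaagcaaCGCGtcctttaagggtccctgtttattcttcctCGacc
Folr1: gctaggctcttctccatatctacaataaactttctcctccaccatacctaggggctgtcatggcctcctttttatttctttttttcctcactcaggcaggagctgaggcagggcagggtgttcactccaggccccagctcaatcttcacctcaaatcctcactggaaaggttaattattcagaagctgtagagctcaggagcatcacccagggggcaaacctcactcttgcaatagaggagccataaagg
Aqp1: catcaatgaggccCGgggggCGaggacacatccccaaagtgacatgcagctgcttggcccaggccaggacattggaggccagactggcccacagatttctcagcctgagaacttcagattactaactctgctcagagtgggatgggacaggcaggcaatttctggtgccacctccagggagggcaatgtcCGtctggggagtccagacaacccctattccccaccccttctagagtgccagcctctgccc

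These stretches held 13 CpGs in Kl, 6 in Prlr, 0 in Folr1 and 3 in Aqp1, and the stretch of Igfbp2 held 14. In the 1000 bp centred on the canonical start, 2 of the 9 genes, Kl and Igfbp2, had a GC content above 50% together with an observed over expected CpG ratio above 0.6, which 46.0% of 21751 protein-coding promoters had. The ratio was 0.777 for Igfbp2 and 0.723 for Kl, against a median of 0.575 over all promoters. It was between 0.203 and 0.444 for Prlr, Clic6, Slc6a13, Ttr and Aqp1, 0.14 for Ptgds and 0.0950 for Folr1. The TATA motif TATAAA, searched on both strands of the 250 bases, was present in 1 of the 9 (Prlr, at position -207) and in 11.9% of all promoters. The GC box GGGCGG was present in Kl, Clic6, Igfbp2 and Slc6a13 and in 36.3% of all. TAATCC, a motif of OTX factors, was present in Ptgds and Slc6a13 and in 6.997% of all. Annotated exons covered 160 of the 250 bases for Clic6, 43 for Igfbp2 and 16 for Ptgds.

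RNA samples held 16414369 to 24272569 reads counted on genes. One library stood apart: the E17.5 wild type pool numbered replicate 1, whose removal lowered the median spread of all genes between the E17.5 wild type pools from 0.512 to 0.190 (SD of log2 CPM, where CPM is the read count relative to library size after TMM scaling). It was the highest of its group for 16 of 22 marker and pathway lists. The pools had markers of the labelled tissue: 10 diencephalon genes summed to between 1029 and 1933 CPM, against 45.4 to 106 CPM for 6 telencephalon genes and 0.925 to 16.9 CPM for 6 midbrain and hindbrain genes.

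Further markers of the same tissues, which do not include the 9 genes, were read as summed levels, which a few genes can carry. Single genes could be low at E11.5. Tmem72, Ecrg4 and Htr2c of the choroid plexus list had wild type means of 0.0358, 0.0846 and 0.625 CPM there. Slc22a8, Mgp and Slc13a4 of the leptomeningeal list had 0.469, 0.123 and 0.564 CPM. These were picked for the largest change with stage and need not be typical of their lists. Over 22 other choroid plexus epithelium genes the summed level was between 131 and 150 CPM in the E11.5 wild type pools and between 133 and 139 CPM in the E11.5 hs754-humanized pools, where Tmem72 was at 0 in all 4. At E17.5 it was between 301 and 443 CPM and between 343 and 440 CPM. A list of 23 leptomeningeal fibroblast genes summed to between 1688 and 2271 CPM in the E11.5 wild type pools, and to between 599 and 960 CPM at E17.5, the latter value in replicate 1. The corresponding hs754-humanized pools gave 1903 to 2141 CPM and 489 to 652 CPM. In bulk tissue, fewer cells of a type and less RNA per cell cannot be told apart.

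The first question was how the levels changed between stages. In the wild type, Ptgds, Ttr, Prlr, Slc6a13 and Kl rose from E11.5 to E17.5 and Igfbp2 fell, while Clic6, Aqp1 and Folr1 did not pass the test. In the hs754-humanized mouse the same 5 genes rose, Igfbp2 fell, and Folr1 fell as well. Thus 6 of the 9 were called in the wild type, where 55.7% of 18583 tested genes were called, and 7 of 9 in the hs754-humanized mouse, where 77.7% of 18781 were (edgeR's quasi-likelihood test, Benjamini-Hochberg adjusted p under 0.05). Without E17.5 wild type replicate 1, 8 of the 9 and 72.3% of 19351 tested genes were called in the wild type. The share of higher calls was 5 of 9 in both, beside 29.0% and 38.2% of all tested genes, and that of lower calls 1 of 9 and 2 of 9, beside 26.7% and 39.5%.

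Ttr had few reads at E11.5. In the E11.5 wild type pools it was at 0.974, 0.371, 0.152 and 0.0811 CPM (19, 7, 3 and 2 reads). In the E11.5 hs754-humanized pools it was at 3.748, 0.135, 0 and 0 CPM, with 77 of the group's 80 reads in replicate 1. A count of 0 allows up to 0.155 CPM there (3 reads, counting error only), so replicate 1 was the only pool of its group well above that limit. At E17.5 the wild type pools were at 206, 261, 139 and 295 CPM. The hs754-humanized pools were at 99.9, 169, 476 and 93.2 CPM. All E17.5 pools were above all E11.5 pools in both genotypes, which was so for Ttr, Ptgds, Prlr, Slc6a13 and Kl, and in the opposite direction for Igfbp2: the stages did not overlap for 6 of the 9 genes in either genotype, beside 49.4% of genes in the wild type and 70.3% in the hs754-humanized mouse. For Ttr, the highest value at E17.5 was hs754-humanized replicate 3. The log2 fold change was 9.18 ± 0.61 (SE, n = 4 and 4) in the wild type and 7.78 ± 1.01 in the hs754-humanized mouse, with edgeR adjusted p-values of 1.16e-06 and 1.85e-05. As a ratio of pooled reads, which is dominated by the pools with most reads, the rise was 608-fold (exact 95% interval 428 to 895, counting error only) and 230-fold (185 to 290). Without E11.5 hs754-humanized replicate 1 the log2 fold changes in the 2 genotypes differed by 2.80 in the opposite direction to the difference over all pools, -1.41 ± 1.37, which itself did not pass the test (edgeR interaction, adjusted p 0.570).

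Over all pools Ptgds had the largest log2 fold change of the 9 in each genotype. In the hs754-humanized mouse this order rested on E11.5 replicate 1, without which Ttr was at 11.94 and Ptgds at 11.35. At E11.5 it had 2, 3, 0 and 0 reads in the wild type pools and 0, 2, 0 and 0 in the hs754-humanized pools. Of the 5 wild type reads, 1 lay on the strand of the gene, and an annotated antisense RNA shares 47 exonic bases with it. At E17.5 it was at 210, 114, 175 and 154 CPM in the wild type and at 97.5, 84.8, 123 and 87.3 CPM in the hs754-humanized pools. The E17.5 values of each genotype spread over less than 2-fold, and no E11.5 pool came near them. Pooled reads gave ratios of 2706 (1159 to 8334) and 4276 (1183 to 35313), with the width set by the few E11.5 reads. The edgeR log2 fold changes were 11.24 ± 0.54 and 11.69 ± 0.35 (adjusted p 3.12e-07 and 3.63e-10).

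Prlr had 3 reads over the 4 E11.5 wild type pools and 5 over the hs754-humanized ones, with at most 3 in a pool. At E17.5 the wild type pools were at 3.66, 13.9, 11.8 and 12.5 CPM. Replicate 1, the library that stood apart, was the low value. The hs754-humanized pools were at 8.11, 17.7, 11.8 and 13.8 CPM. Pooled reads rose 292-fold (99.5 to 1418) and 219-fold (93.5 to 676), and the edgeR log2 fold changes were 7.94 ± 0.63 and 7.64 ± 0.47 (adjusted p 3.28e-06 and 3.25e-08). Prlr shares 305 and 1058 exonic bases with annotated antisense RNAs and 203 with another coding model on its own strand, and nearly all its E17.5 reads (857 of 860 in the wild type) lay on its strand.

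Slc6a13 and Kl rose less and were already present at E11.5. Slc6a13 was at 3.33, 2.86, 1.77 and 2.19 CPM in the E11.5 wild type pools and at 37.2, 19.2, 20.6 and 16.3 CPM at E17.5, a log2 fold change of 3.19 ± 0.32 (adjusted p 1.45e-05). In the hs754-humanized pools it went from 1.51, 2.51, 1.81 and 2.62 CPM to 14.2, 16.4, 22.9 and 11.3 CPM, 2.91 ± 0.25 (edgeR adjusted p 5.37e-07). The highest wild type value at E17.5 was again replicate 1, which was the highest E17.5 wild type pool for 5 of the 9 genes. Kl, with 9 to 25 reads per pool at E11.5, was at 1.08, 0.690, 1.26 and 0.933 CPM in the wild type and reached 2.98, 3.32, 1.29 and 3.20 CPM. Replicate 3 at E17.5 lay just above the highest E11.5 value. The hs754-humanized pools were at 0.584, 0.852, 0.466 and 0.615 CPM and then at 1.97, 2.79, 3.49 and 1.97 CPM. The log2 fold change of Kl was 1.43 ± 0.36 in the wild type and 1.99 ± 0.30 in the hs754-humanized mouse (edgeR adjusted p 0.00612 and 5.59e-05).

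Igfbp2 fell in both genotypes from the highest E11.5 level of the 9. In the wild type it went from 160, 187, 120 and 165 CPM to 103, 35.7, 42.9 and 36.8 CPM, and the 103 CPM was replicate 1. In the hs754-humanized pools it went from 212, 182, 203 and 151 CPM to 34.8, 30.5, 46.2 and 33.1 CPM. The log2 fold changes were -1.54 ± 0.34 and -2.38 ± 0.15 (edgeR adjusted p 0.00300 and 3.78e-08). The difference between them was -0.83 ± 0.39 (interaction, unadjusted p 0.0478, adjusted p 0.462).

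For Folr1, Clic6 and Aqp1 the stages overlapped in each genotype. Folr1 ranged from 3.59 to 5.76 CPM at E11.5 and from 2.64 to 5.70 CPM at E17.5 in the wild type, and from 4.92 to 8.54 CPM and 1.85 to 6.52 CPM in the hs754-humanized pools. Its log2 fold change was -0.30 ± 0.29 in the wild type and -0.96 ± 0.36 in the hs754-humanized mouse, with edgeR adjusted p-values of 0.389 and 0.0269. The call for Folr1 was lost without any one of 4 hs754-humanized pools (replicate 3 at E11.5, or replicate 1, 2 or 4 at E17.5, adjusted p 0.0569 to 0.0811), and Folr1 was called lower in the wild type (-0.61, adjusted p 0.0227) without E17.5 replicate 1. Clic6 was at 5.66 to 10.97 CPM and 8.01 to 17.4 CPM in the wild type (0.63 ± 0.28, edgeR adjusted p 0.0784). In the wild type Clic6 was called higher without E11.5 replicate 1, E17.5 replicate 1 or E17.5 replicate 3 (log2 fold changes 0.80, 0.66 and 0.80, adjusted p 0.0451, 0.0365 and 0.0362). Aqp1 was at 3.39 to 5.99 CPM and 1.94 to 6.01 CPM (-0.24 ± 0.34, edgeR adjusted p 0.573). In the hs754-humanized pools the values were 0.23 ± 0.42 for Clic6 and -0.37 ± 0.40 for Aqp1, and without E17.5 replicate 3 Aqp1 was called lower there (-0.89, adjusted p 0.0422).

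**Figure D1:**
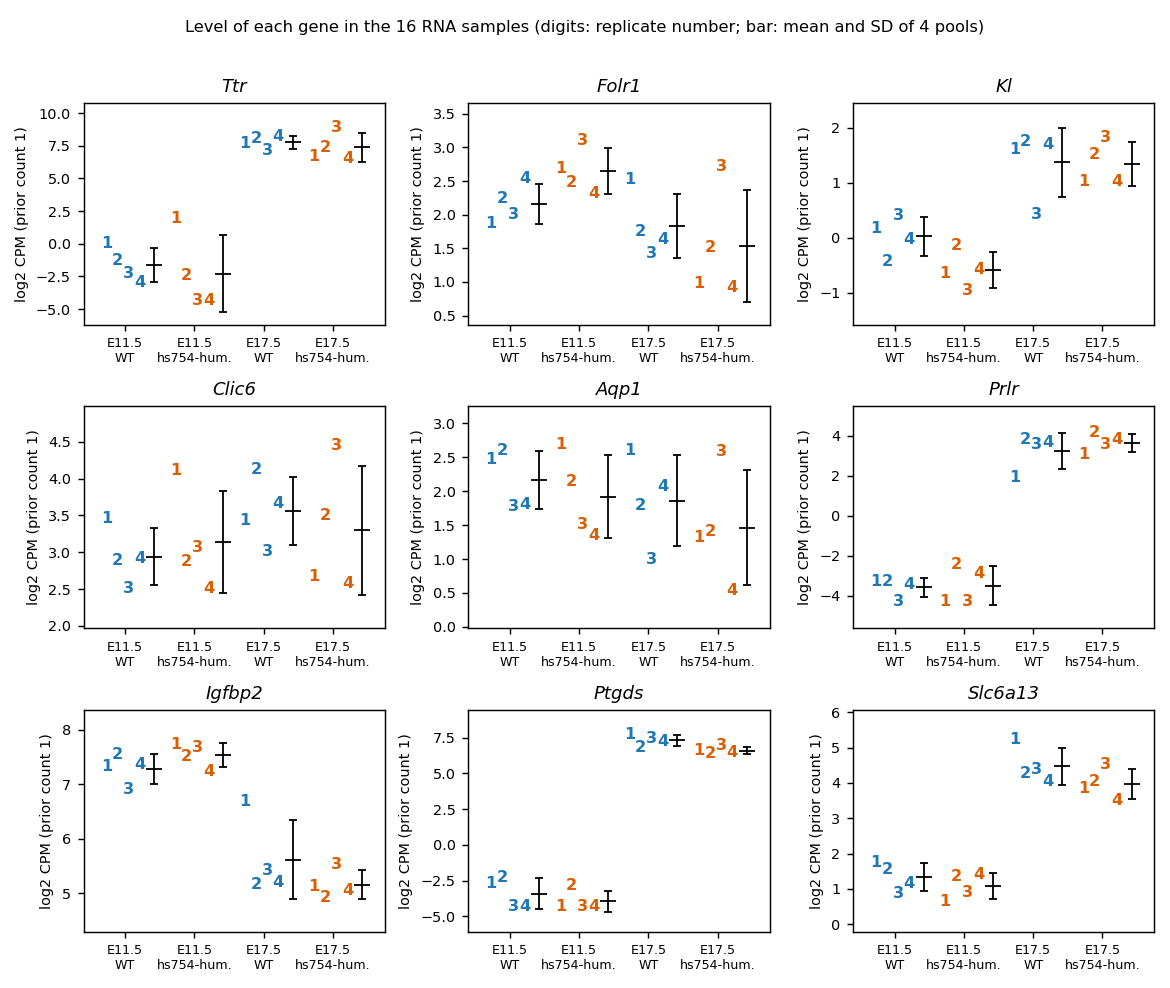
Level of each gene (vertical axis, log2 CPM with a prior count of 1) in the 16 RNA samples by stage and genotype. Digits are replicate numbers (blue wild type, orange hs754-humanized) and black bars are the mean and SD of 4 pools. Ttr, Prlr and Ptgds sit far apart between stages, Igfbp2 is lower at E17.5, and Folr1, Clic6 and Aqp1 overlap.

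**Figure D2:**
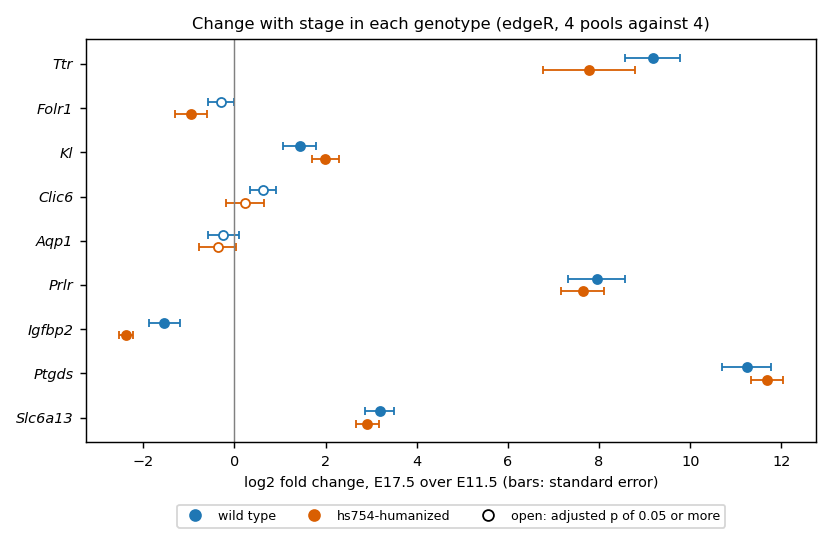
Log2 fold change of E17.5 over E11.5 for each gene (horizontal axis), with its standard error, in wild type (blue) and hs754-humanized mice (orange). Filled points passed the test at an adjusted p of 0.05. Ptgds (11.24 and 11.69) lies farthest to the right and Igfbp2 (-1.54 and -2.38) farthest to the left.

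Levels of different genes were compared per length, as mean CPM per kilobase of the canonical transcript. In the E17.5 wild type pools the order was Ttr (171, range 106 to 224), Ptgds (87.8, 61.4 to 113), Igfbp2 (41.3, 27.1 to 77.7), Slc6a13 (10.4, 7.30 to 16.7), Clic6 (2.78, 1.83 to 3.97), Folr1 (2.77, 1.99 to 4.29), Aqp1 (1.30, 0.652 to 2.02), Prlr (1.01, 0.352 to 1.34) and Kl (0.527, 0.253 to 0.648). Ranges of neighbours overlapped everywhere in that order except between Igfbp2 and Slc6a13 and between Slc6a13 and Clic6. The overlap of Ptgds and Igfbp2 came from replicate 1, since Igfbp2 was between 27.1 and 32.5 in the other 3 pools. In the E11.5 wild type pools Igfbp2 led with 120 CPM per kilobase, followed by Folr1 at 3.38, and Ttr (0.2998), Kl (0.194), Ptgds (0.0352) and Prlr (0.00349) closed the order. With the union of all annotated exons as the length, Igfbp2 (26.2) came before Ptgds (21.9) at E17.5, and Folr1 dropped to 0.557.

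Other genes of each pathway were counted from fixed lists, beside the shares of all tested genes given above. Of the 22 other choroid plexus epithelium genes, 12 rose and 7 fell in the wild type, and 12 rose and 6 fell in the hs754-humanized mouse (median log2 fold changes 1.02 and 0.78, all tested genes -0.02 and -0.04). The 3 with the largest change were Tmem72, a membrane protein (log2 fold changes 6.12 ± 0.82 and 9.01 ± 1.10), Ecrg4, which encodes the secreted protein augurin (5.72 ± 0.40 and 5.83 ± 0.57), and Htr2c, the serotonin receptor 2C, which neurons also express (5.03 ± 0.47 and 5.24 ± 0.30). Of the motile cilia genes, 8 of 10 tested rose in the wild type and 10 of 10 in the hs754-humanized mouse, with medians of 2.03 and 1.92, led by Ccdc153 (8.62 ± 0.76 and 8.32 ± 0.61). In the list of roof plate and choroid plexus transcription factors and signals, 11 of 12 and 11 of 11 fell (medians -2.74 and -2.33), among them the homeobox genes Msx2 (-6.02 ± 0.39 and -5.79 ± 0.23) and Msx1 (-3.17 ± 0.29 and -4.02 ± 0.21) and the ligand Wnt3a (-5.34 ± 0.66 and -5.95 ± 0.47).

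The leptomeningeal list was divided: 10 of 23 rose and 12 fell in the wild type, and 9 of 22 rose and 13 fell in the hs754-humanized mouse (medians -0.67 and -1.28). The 3 named by the rule all rose, the organic anion carrier Slc22a8 (5.29 ± 0.26 and 4.77 ± 0.21), Mgp, which encodes matrix Gla protein (4.44 ± 0.56 and 3.86 ± 0.53), and the sulfate carrier Slc13a4 (3.93 ± 0.30 and 3.30 ± 0.29). Around Ttr, 5 of 9 genes of retinol and thyroid hormone transport rose and 0 fell in the wild type, and 4 rose and 2 fell in the hs754-humanized mouse. The thyroid hormone carrier Slco1c1, of endothelium and choroid plexus, rose by 4.08 ± 0.21 and 3.67 ± 0.19. In the folate list 6 of 8 fell in each genotype, and 1 rose in the wild type and 0 in the hs754-humanized mouse. The falls were led by the thymidylate synthase gene Tyms (-3.43 ± 0.18 and -3.73 ± 0.14), which dividing cells need. Among other aquaporins, Aqp4 of astrocyte endfeet rose by 6.76 ± 0.72 and 6.74 ± 0.42, and 3 of 4 rose and 1 fell in the wild type against 2 of 3 and 1 in the hs754-humanized mouse.

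The remaining partners gave smaller counts. Of the other CLIC genes 3 of 4 fell in each genotype, with Clic4 at -2.32 ± 0.17 and -2.65 ± 0.10. Of 4 tested Klotho and FGF partners 3 fell in each, with the receptor genes Fgfr3 (-2.33 ± 0.24 and -2.81 ± 0.13) and Fgfr2 (-2.12 ± 0.18 and -2.07 ± 0.12), and 1 passed the test as higher in the hs754-humanized mouse. In the prolactin pathway 3 of 6 rose in each and 0 and 1 fell, with Jak2, the kinase bound by the receptor, at 1.92 ± 0.36 and 2.62 ± 0.24. The hormone gene Prl itself had 0 reads in all 16 samples. GABA and taurine carriers rose in 4 of 5 and 3 of 4 cases and fell in 0 and 1, with Slc6a11 at 6.77 ± 0.37 and 5.67 ± 0.23. In the IGF system 3 of 9 rose and 4 fell in the wild type and 4 rose and 5 fell in the hs754-humanized mouse, and neither of the 2 tested prostaglandin D2 pathway genes passed the test. None of these lists held a gene called between genotypes.

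The next question was how far the genes varied between pools of one group. The median SD of log2 CPM over the 9 genes was 0.397 in the E11.5 wild type pools (all tested genes 0.258), 0.617 in the E11.5 hs754-humanized pools (0.246), 0.518 in the E17.5 wild type pools (0.512) and 0.469 in the E17.5 hs754-humanized pools (0.253). Without replicate 1 the E17.5 wild type values were 0.317 and 0.190. The E11.5 hs754-humanized median was 0.397 without replicate 2 (all tested genes 0.251) and 0.331 with a prior count of 5 (0.225). Ttr had the widest spread in 3 of the 4 groups: its SD was 1.30 and 2.95 at E11.5, where few reads alone would give about 0.518 and 0.323, and 1.09 in the E17.5 hs754-humanized pools, above that of 97.2% of genes, where reads alone would give 0.0238. In that group its highest pool was 5.11 times its lowest. Clic6 (0.871), Aqp1 (0.845) and Folr1 (0.832) lay above 94.2%, 93.7% and 93.4% of genes there, and Ptgds (0.245) and Igfbp2 (0.261) above 48.5% and 51.7%. Replicate 3 was the highest hs754-humanized pool at E17.5 for 8 of the 9 genes. Its leptomeningeal list (652 CPM, other pools 489 to 594) and its red blood cell list (520 CPM, other pools 293 to 338) were also the highest of the group, while its choroid plexus epithelium list (426 CPM) was below that of replicate 2 (440 CPM).

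Whether the genes moved together between pools was tested by correlating Ttr with each of the other 8 over the 8 pools of a stage, 16 relations in all. At E17.5, Clic6 followed Ttr most closely (Pearson r = 0.96, exact permutation p 0.000322, adjusted p 0.00516, two-sided; Spearman rho 0.952, adjusted p 0.0183). Aqp1 (r = 0.835, exact permutation p 0.0113, adjusted p 0.0450; rho 0.833) and Folr1 (r = 0.832, exact permutation p 0.0108, adjusted p 0.0450; rho 0.905) passed the threshold as well. Kl missed it for r (0.765, exact permutation p 0.0255, adjusted p 0.0681) but not for rho (0.881, adjusted p 0.0290). The values for Slc6a13 (r = 0.511, rho 0.571), Ptgds (0.343, 0.405), Igfbp2 (0.247, 0.548) and Prlr (0.0301, -0.0476) had adjusted p-values of 0.353 or more. Over the same pools, 0.0148% of 20231 tested genes had an r to Ttr as high as Clic6, 0.143% as high as Aqp1, 0.148% as high as Folr1 and 0.430% as high as Kl.

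The summed levels of 4 marker lists were set against Ttr, Clic6, Aqp1 and Folr1 in the same 8 pools, 16 relations chosen after the data were seen. Clic6, Aqp1 and Folr1 were taken because they followed Ttr in these same pools, so the p-values are given as description. For Ttr none passed: r was 0.489 with the choroid plexus epithelium list (exact permutation p 0.215, adjusted p 0.360; rho 0.452), 0.625 with the roof plate and choroid plexus factor list (adjusted p 0.233; rho 0.643), 0.466 with the leptomeningeal list (adjusted p 0.360; rho 0.548) and 0.134 with red blood cells (adjusted p 0.933; rho -0.0476), by exact permutation. Without the 2 farthest pools these r were 0.716, 0.651, 0.633 and -0.604, so the last changed sign. Folr1 (r = 0.926, exact permutation p 0.00188, adjusted p 0.0302) and Aqp1 (r = 0.866, exact permutation p 0.00429, adjusted p 0.0343) followed the roof plate and choroid plexus factor list, with rho of 0.881 and 0.762 that did not pass after adjustment (0.116 and 0.244), and r of 0.798 and 0.657 without the 2 farthest pools. Their r with the choroid plexus epithelium list was 0.0349 and 0.0471. The relation to the roof plate and choroid plexus factor list was not particular to these 2 genes. Among the members outside the 16 relations, not tested, r with that list was 0.951 for Slc6a13, 0.835 for Igfbp2, 0.624 for Ptgds, 0.495 for Kl and -0.654 for Prlr. Nor was it particular to that list. For Folr1 and Aqp1, r was 0.764 and 0.796 with Klotho and FGF partners and 0.636 and 0.634 with the telencephalon list. It was -0.477 and -0.535 with the prolactin pathway list. Wild type replicate 1, highest of its group for 16 of 22 lists, was also highest for the roof plate list, and its part was not tested. None of the 4 relations of Clic6 passed (adjusted p 0.233 or more). Whether any of these lists accounts for the relations among the 4 genes was not tested.

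Leaving out the 2 pools farthest from the median of Ttr gave r = 0.903 for Clic6, 0.751 for Kl, 0.651 for Aqp1 and 0.592 for Folr1. With the genotype means subtracted, r was 0.959, 0.784, 0.822 and 0.821. Without E17.5 wild type replicate 1 it was 0.961, 0.770, 0.938 and 0.941. Clic6 passed without any one pool (r from 0.934 to 0.979). Aqp1 lost its call in 7 of the 8 cases and Folr1 in 6, with r no lower than 0.768 and 0.706. Kl passed only without wild type replicate 3 (r = 0.951, adjusted p 0.00754). Ttr, Clic6, Aqp1 and Folr1 ranked the hs754-humanized pools alike at the top (replicate 3) and bottom (replicate 4), and Prlr had replicate 2 at the top and replicate 1 at the bottom.

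**Figure D3:**
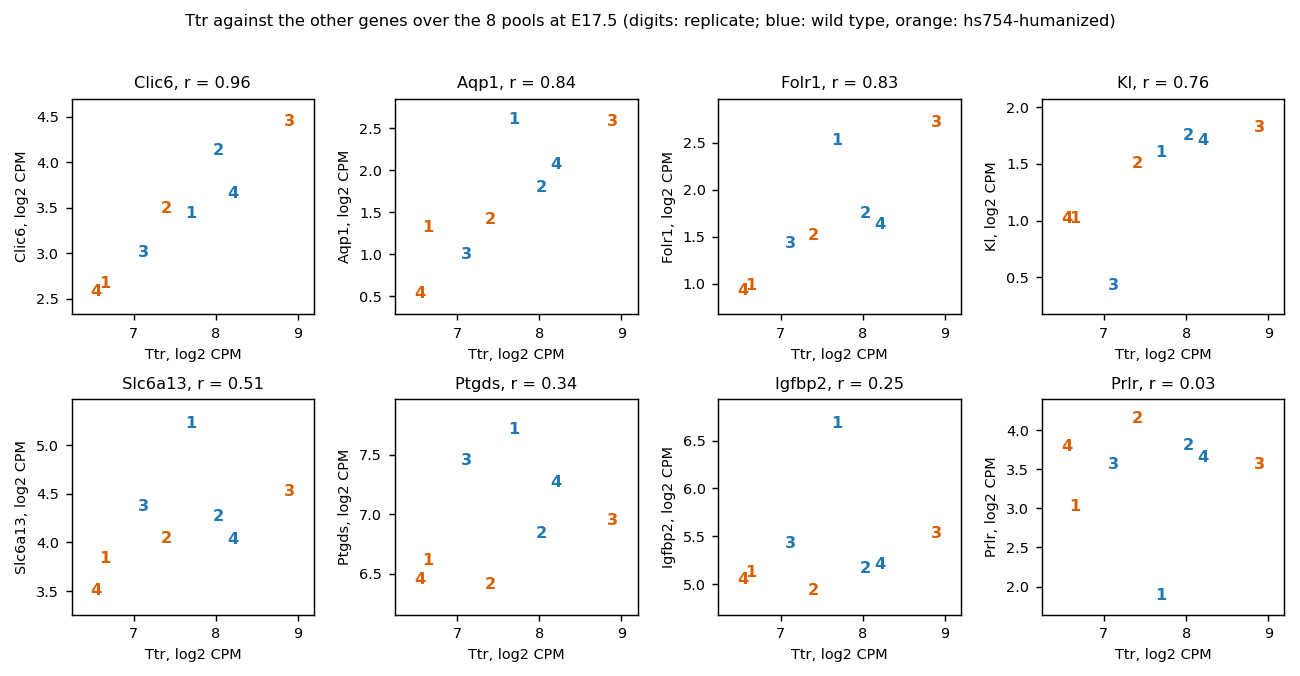
Ttr (horizontal axis, log2 CPM) against each of the other 8 genes (vertical axes, log2 CPM) over the 8 pools at E17.5, with Pearson's r. Digits are replicate numbers, blue for wild type and orange for hs754-humanized. Clic6 follows a line (r = 0.96), while wild type replicate 1 stands high for Slc6a13, Ptgds and Igfbp2 and low for Prlr.

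At E11.5, Aqp1, with an r as high as that of 0.119% of 20178 genes, was related to Ttr (r = 0.913, exact permutation p 0.000942, adjusted p 0.00754; rho 0.898, adjusted p 0.0275), with r = 0.928 without the 2 farthest pools and at least 0.893 without any one pool. Clic6 (0.808% of genes as high) also passed for r (0.819, exact permutation p 0.0144, adjusted p 0.0460) but not for rho (0.539, adjusted p 0.353), and it rested on hs754-humanized replicate 1: r was 0.0304 without the 2 farthest pools, and 0.561 without that replicate (adjusted p 0.283), and the call was lost in 6 of 8 cases with 1 E11.5 pool left out. That pool had the highest Ttr (3.748 CPM), Clic6 (17.2 CPM, other pools of the group 5.61 to 8.33) and Aqp1 (6.42 CPM, others 2.50 to 4.35) of its group. Its sum over 22 other choroid plexus epithelium genes (133 CPM) was the lowest of the group. Ttr had 3 reads or fewer in 5 of the 8 E11.5 pools, so its order among them is poorly set. The other 6 relations at E11.5 had adjusted p-values of 0.744 or more for r.

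Over all 16 samples, after subtracting each stage mean, the genes outside the list whose log2 CPM was most like that of Ttr were Fsip1 (r = 0.820), Sp9 (0.811), Rspo2 (0.794), Wfikkn2 (0.790) and Olig3 (0.787), out of 14097 genes with a mean log2 CPM of at least 1. Rspo2, which is in the roof plate list, is a secreted amplifier of Wnt signalling, and Olig3 is a transcription factor of the dorsal neural tube and thalamus. For Ptgds they were Plac9 (0.885), Aldh1a2 (0.877), Fcgr3 (0.799), S100a1 (0.798) and Trpt1 (0.794). Aldh1a2 makes retinoic acid and was already in the leptomeningeal list, and Fcgr3 is an immunoglobulin receptor of macrophages. These values describe likeness over samples that share the same libraries. They mostly follow E11.5 pools with few reads, which held 87.6% of the squared deviations of Ttr and 77.9% of those of Ptgds, so the order of these genes is poorly set.

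The hs754-humanized mouse was then compared with the wild type at each stage. None of the 9 genes differed by the test. At E11.5 the 6 of them that passed the count filter (Ttr, Prlr and Ptgds did not) had adjusted p-values of 0.577 or more, and at E17.5 all 9 had 0.808 or more. The background was the same: edgeR called 0 of 17816 genes at the earlier stage and 0 of 18763 at the later one (0% in each), with 1058 and 207 genes at an unadjusted p under 0.05, and DESeq2 called 2 and 1 genes, none of them among the 9. For none of the 9 did the 4 pools of one genotype lie wholly above those of the other, which was so for 2.50% of genes at the earlier stage and 1.28% at the later.

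At an unadjusted p under 0.05 there were 3 differences. Ptgds was at 163 ± 40.2 CPM (SD, n = 4) in the wild type and at 98.2 ± 17.6 CPM in the hs754-humanized pools at E17.5, a log2 difference of -0.74 ± 0.22 (edgeR unadjusted p 0.00689, adjusted p 0.808). The leptomeningeal list ranged from 599 to 960 CPM and from 489 to 652 CPM in the same pools, and its part in the difference was not tested. The groups of Ptgds overlapped through hs754-humanized replicate 3 (123 CPM) and wild type replicate 2 (114 CPM). Same-numbered pools deviated together at this stage for replicates 1 and 2 (correlations 0.605 and 0.673), but less for replicates 3 and 4 (0.133 and 0.323). Ptgds was lower in the hs754-humanized pool in 4 of 4 same-numbered pairs. With the replicate number as a block the difference was -0.72 ± 0.18 (edgeR unadjusted p 0.00257, adjusted p 0.599). Kl at E11.5 was at 0.991 ± 0.242 CPM and 0.629 ± 0.162 CPM, -0.67 ± 0.29 (unadjusted p 0.0444, adjusted p 0.577). Folr1 at E11.5 was at 4.49 ± 0.957 CPM and 6.34 ± 1.58 CPM, 0.46 ± 0.21 (unadjusted p 0.0497, adjusted p 0.577).

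For Ttr the E17.5 difference was -0.11 ± 0.48, with means of 225 ± 68.1 and 210 ± 181 CPM. Its sign depended on single pools: from -0.88 to 0.14 over the fits without 1 pool. The directions of Folr1, Clic6 and Kl at E17.5 were equally unsettled, since each changed sign in 3 or 4 of 8 such fits. Igfbp2 (-0.60 ± 0.34) and Slc6a13 (-0.53 ± 0.30) had their highest value in wild type replicate 1, without which they were at -0.09 ± 0.15 and -0.21 ± 0.21 (Ptgds -0.60 ± 0.17). That pool was also the highest of its group for the red blood cell list (1021 CPM, others 242 to 458), the retinol and thyroid hormone list (1078 CPM, others 459 to 475), the endothelium list (432 CPM, others 250 to 307), the telencephalon list (106 CPM, others 67.8 to 71.2) and the leptomeningeal list (960 CPM, others 599 to 664), and their part in these values was not tested. The change with stage did not differ between genotypes for any of the 9 by the interaction test, in which edgeR called 0 of 20234 genes (1610 at an unadjusted p under 0.05, and 0 called by DESeq2).

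**Figure D4:**
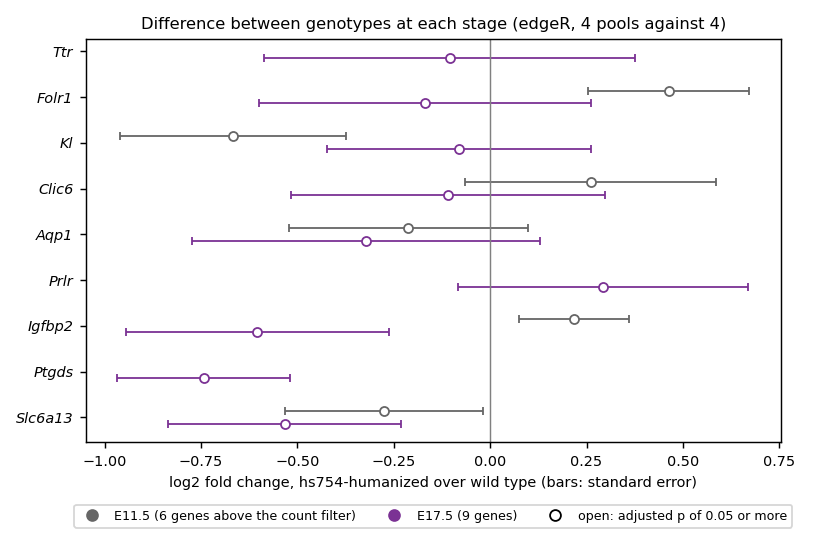
Log2 difference of the hs754-humanized over the wild type pools (horizontal axis) with its standard error, at E11.5 (grey, 6 genes above the count filter) and E17.5 (purple, 9 genes). Every point is open, since no adjusted p was under 0.05. Ptgds at E17.5 (-0.74) lies farthest left.

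Promoter marks were read from the peak lists, where each replicate has its own list and each peak a fold enrichment over local background. H3K4me3 marks promoters that are active or poised, H3K27ac active promoters and enhancers, H3K27me3 Polycomb-repressed chromatin, and CTCF is a DNA-binding factor of domain borders. The paper reports that its H3K27ac antibody lot also reacted with an acetylated site of histone H2B (H2BK5ac), so H3K27ac peaks may include that mark. A gene was counted where every wild type list of a mark and stage had a peak overlapping the 1000 bp on each side of its outermost annotated start by at least 1 bp. Of 63 combinations of gene, mark and stage, 17 met this. For H3K4me3, 3 of the 9 genes (Kl, Prlr and Igfbp2) did so at each stage, beside 60.4% of 21757 protein-coding genes at the earlier and 60.6% at the later stage. For H3K27ac it was 1 gene at E11.5 (Igfbp2, beside 44.8% of genes) and 2 at E17.5 (Prlr and Igfbp2, beside 54.4%). For H3K27me3 it was 3 at E11.5 (Kl, Prlr and Slc6a13, beside 18.7%) and 4 at E17.5 (these and Igfbp2, beside 18.7%), and for CTCF Kl alone (beside 32.2%). The H3K27me3 lists reach down to a lower −log10 q (1.01 to 1.08 in the wild type) than the other lists (1.31 or more). With a −log10 q of at least 5, H3K27me3 was in every wild type list for Kl and Prlr at E11.5 and for Kl at E17.5, while Slc6a13, Igfbp2 and, at E17.5, Prlr did not meet it. No gene of the 9 had CTCF in every wild type list at this threshold, or with 500 bp on each side.

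The H3K4me3 and H3K27ac lists of Prlr differed between the stages. Its H3K4me3 peak had a fold enrichment of 10.5 and 11.04 in the E11.5 wild type lists, above 7.099% and 6.77% of the promoters with a peak in those lists, and of 42.6, 35.9 and 41.7 at E17.5, above 32.9%, 21.4% and 33.7% of them. Lists of the 2 stages are not on a common scale: the median fold of all H3K4me3 peaks was 18.2 and 21.8 at E11.5 and between 28.1 and 29.5 at E17.5. H3K27ac was not listed at the promoter of Prlr at E11.5, where the nearest peak lay 292575 bp away, and was listed in 3 of 3 lists at E17.5 (6.34, 4.803 and 5.35), above 12.1%, 7.35% and 8.83% of promoters with a peak. The wild type H3K27ac lists held 32418 and 36150 peaks at the earlier stage and 62720 to 77419 at the later, so these lists are not on a common scale between the stages either. H3K27me3 was listed at both stages, at 5.37 and 4.41 and then at 3.33, 2.50 and 2.89. In the hs754-humanized lists H3K4me3 was at 9.53 and 9.67 and then at 39.5, 37.8 and 39.6.

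Kl carried H3K4me3 and H3K27me3 at both stages. Its H3K4me3 fold was 17.8 and 22.4 in the E11.5 lists, and in those of E17.5 it was 39.0, 43.1 and 38.0, and its H3K27me3 fold 8.74 and 8.07 and then 6.35, 5.05 and 5.50. H3K27ac was listed at E17.5 only, in 2 of 3 lists (3.56 and 3.36, above 2.41% and 1.85% of promoters with a peak). CTCF was listed in 3 of 3 (6.10, 3.77 and 7.65, above 38.4%, 11.9% and 48.0% of promoters with a peak). Igfbp2, with a CpG-rich promoter and the highest E11.5 level, had the strongest H3K27ac of the 9 at E11.5, at 19.6 and 16.2, and at 9.90, 12.2 and 8.22 at E17.5, where Ptgds reached 8.54 by its canonical start. Its H3K4me3 was between 41.8 and 68.0 in the wild type lists, and H3K27me3 was in 1 of 2 lists at the earlier stage and 3 of 3 at the later. Slc6a13, which rose in RNA, had H3K27me3 in every list (2.56 to 3.25 at E11.5 and 2.46 to 3.45 at E17.5 in the wild type) and H3K27ac in 0 of 2 wild type lists at E11.5, 1 of 3 at E17.5 and 3 of 3 hs754-humanized lists at E17.5.

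Around the outermost start, Ttr, Ptgds and Clic6 had no peak of H3K4me3, H3K27ac or CTCF in any list, and their canonical starts lie 1043 to 12378 bp further in. The start of the canonical transcript was therefore used as well, a choice made after the data were seen. There Ttr had H3K27ac in 3 of 3 wild type lists at E17.5 (4.205, 6.097 and 2.64) and in 2 of 3 hs754-humanized lists, and in 0 of 2 at E11.5, where the nearest wild type peak was 80183 bp away. Ptgds had H3K27ac in 3 of 3 wild type lists at E17.5 (8.36, 8.54 and 6.99), in 2 of 3 hs754-humanized lists, and in none at E11.5. Neither had an H3K4me3 peak in any of the 10 lists: the nearest lay 75416 bp from Ttr and 8882 bp from Ptgds. Clic6 had H3K4me3 in every list (23.4 and 25.4 at E11.5, 18.9, 26.0 and 29.3 at E17.5 in the wild type) together with the strongest H3K27me3 of the 9 (12.5 and 11.4, then 11.1, 10.8 and 10.6). With this start, 23 of 63 combinations were met in the wild type.

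Aqp1 and Folr1, which had RNA at both stages, had few peaks at their starts. Aqp1 had no H3K4me3, H3K27ac or CTCF peak within 1000 bp in any list, and its only marks were weak H3K27me3 peaks at E17.5, in 1 of 3 wild type lists (2.64) and 2 of 3 hs754-humanized lists (2.48 and 2.42). Its nearest H3K4me3 peak in any list lay 115328 bp away. Folr1 had H3K27ac in 1 of 2 wild type lists at E11.5 (4.56) and in both hs754-humanized lists (6.87 and 2.54), and no other promoter peak. The promoters with no H3K4me3 peak in any list, those of Ttr, Folr1, Aqp1 and Ptgds at the canonical start, had 6 to 16 CpGs in 1000 bp, and the 4 with one in every list, those of Kl, Igfbp2, Clic6 and Prlr, had 21 to 81, against a median of 43 over all promoters. Slc6a13, with H3K4me3 in 3 of 10 lists at a fold of 3.39 to 4.88, had 21. Peak lists do not give read depth, so a missing peak says only that none was called.

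**Figure D5:**
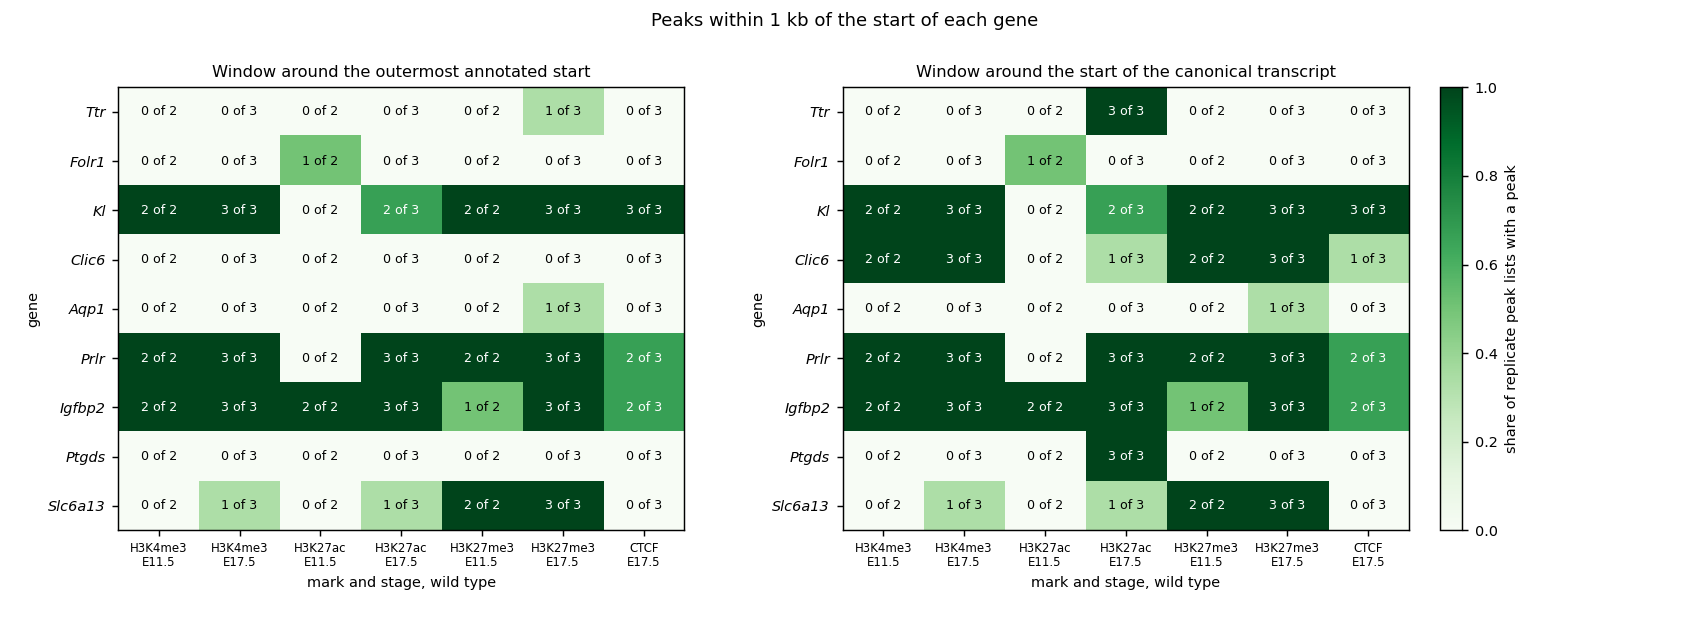
Number of wild type peak lists, of 2 for the earlier and 3 for the later stage, with a peak within 1000 bp of the start of each gene (rows) for each mark and stage (columns), around the outermost annotated start (left) and the start of the canonical transcript (right). Darker cells hold a larger share of lists. Kl, Prlr and Igfbp2 are marked with H3K4me3 in all lists by either start, and Ttr and Ptgds show H3K27ac in 3 of 3 lists at E17.5 only around the canonical start.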

How the data were processed

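RNA-seq was analysed in 16 of 76 samples and ChIP-seq peak lists in 36. The 24 inputs were not analysed here. The members and gene lists were chosen with earlier results of these data known. The authors aligned polyA RNA with STAR 2.7.9a and deposited read counts per gene. The unstranded column was used (16414369 to 24272569 counts on genes). Of the reads, 48.1 to 58.4% were not counted on a gene. Most of these did not map: unmapped reads were 36.3 to 44.9% of all reads in a library. Intervals and floors cover counting error only. ChIP reads were aligned with Bowtie2 2.4.2 and peaks called per replicate with MACS2 2.2.7.1, according to the submitters' processing notes. The deposited peak lists give a score, a fold enrichment (ratio), a −log10 p and q value and other columns such as the summit offset. Hs754-humanized lists use the humanized genome, which differs on chromosome 13.

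Of 56923 gene IDs, 98.8% matched the GENCODE annotation of GRCm39. Groups were compared with edgeR 4.0.16 (quasi-likelihood test, TMM scaling, filterByExpr, Benjamini-Hochberg adjustment, threshold 0.05), without a replicate block. DESeq2 1.42.0 was an alternative. Log2 CPM used a prior count of 1. Correlations used exact two-sided permutation tests (scipy 1.17.1) over 16 relations, and over 16 more with marker lists, chosen after seeing the data. Besides the 9 genes, the text names up to 3 genes of a list with the largest change among those called by stage in the wild type and changed the same way in the hs754-humanized mouse, and the 5 genes most like Ttr and Ptgds. A promoter window around the canonical start and the union of exons as length were chosen after seeing the data. Same-numbered E17.5 pools of the 2 genotypes deviated together for replicates 1 and 2 (correlations 0.605 and 0.673). Replicates 3 and 4 gave 0.133 and 0.323. At E11.5 the correlations were 0.0375 to 0.190, a range that holds the value of E17.5 replicate 3. The pairing comes from the data, since no source says what a number marks. The procedures were tested on simulated data.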

Additional observations from a re-analysis of the deposited data

Results flagged for a closer look

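A sample far from the other 3 of its group was found for 3 genes, by Dixon's criterion, which chance meets in about 1 of 20 groups. Each of the 9 genes was searched in each RNA group, so chance alone can give such samples. Prlr at E17.5 was at 3.66 CPM in wild type replicate 1, the library that stood apart, and at 11.8 to 13.9 CPM in the others. Kl at E17.5 was at 1.29 CPM in wild type replicate 3 and at 2.98 to 3.32 CPM in the others. Ptgds at E11.5 was at 0.0897 CPM in hs754-humanized replicate 2, which is 2 reads, and at 0 in the others. With the others all at 0, any read in that pool meets the criterion.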

How the results depend on the processing

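Genes called between genotypes numbered 2 at E11.5 and 1 at E17.5 with DESeq2, and 1 at E11.5 with all 16 samples in the fit, against 0. With a prior count of 5 the median spread of the 9 genes in the E11.5 hs754-humanized pools was 0.331. With at least 50% of a peak required inside the window, 9 of 63 promoter combinations were met in place of 17. The interaction of Ptgds was -1.38 on its own strand and 0.46 otherwise. Scaling by library totals alone moved the median of all genes to -0.13 in both stage comparisons. The cause of these shifts was not tested. Without E17.5 wild type replicate 1, 13994 genes were called by stage in the wild type.

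Leaving out 1 pool at a time, 2 to 5 relations with Ttr passed, and the median spread was 0.397 to 0.675 in the E11.5 hs754-humanized and 0.317 to 0.613 in the E17.5 wild type pools. Differences that changed sign ranged, between genotypes, from -0.17 to 0.47 (Clic6, E11.5) and at E17.5 from -0.30 to 0.048 (Kl), -0.73 to 0.13 (Folr1), -0.62 to 0.12 (Clic6) and -0.88 to 0.14 (Ttr). By stage in the hs754-humanized mouse Clic6 ranged from -0.29 to 0.64. In the interaction the ranges were -0.38 to 2.67 (Ptgds), -0.66 to 0.19 (Aqp1), -0.49 to 0.047 (Slc6a13), -0.65 to 0.48 (Prlr), -0.93 to 0.041 (Clic6) and -2.36 to 2.80 (Ttr).

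With the replicate number as a block, 0 genes were called between genotypes at either stage, and 9466 and 14454 by stage; the block changed no call of the 9 genes. Few reads limit Ttr, Ptgds and Prlr at E11.5.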
